A study of Mus musculus with 8 samples.

Results

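The genes described here are 41 listed genes of the cell cycle and of DNA replication, chosen by symbol, and all 41 were found among the 24888 genes of the deposited count table. By role they were 11 genes of replication licensing and the fork, 3 of nucleotide supply, 4 of the E2F and pocket protein switch, 8 G1 cyclins and kinases, 4 cyclins and the kinase of S phase to mitosis, 6 mitotic genes, 3 inhibitors of cyclin-dependent kinases, and Myc with Mycn. RNA was sequenced in 8 libraries, 1 per group, all from E14 mouse embryonic stem cells (ESC), a single line.

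The groups were T0901317-treated EPSC (T09 EPSC), untreated EPSC, T09-treated ESC, untreated ESC, day 2 blastoids with an siRNA against Nr1h2 (siNr1h2), day 2 blastoids with a non-targeting siRNA (siNT), and day 5 blastoids picked by hand as Type I and as Type III. T0901317 (T09) is an agonist of the liver X receptors, and Nr1h2 encodes one of them. It was given for 3 days to ESC and EPSC at a concentration whose unit the labels leave unclear. The ESC were grown on gelatin in serum with LIF, CHIR99021 (a GSK3 inhibitor) and PD0325901 (a MEK inhibitor). EPSC, expanded potential stem cells, were the same cells after 5 passages in KnockOut serum replacement with LIF, CHIR99021, PD0325901, JNK Inhibitor VIII, SB203580, A-419259 and XAV939. Blastoids are aggregates of EPSC that model the blastocyst. They were grown in microwells with FGF4, heparin and CHIR99021, with Y-27632 at seeding and BMP4 and A83-01 afterwards. Their media list no PD0325901 and no T09. Day 2 blastoids were harvested 48 hours after siRNA transfection. Both day 5 types are labelled as derived from T09-treated EPSC.

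In every S phase the helicase subunits Mcm2 to Mcm7 are loaded onto origins by Cdc6 and Cdt1, a step called licensing, and are later activated with Cdc45 and Mcm10. Entry into S phase is set by D-type cyclins with Cdk4 or Cdk6 and by E-type cyclins with Cdk2, which phosphorylate Rb1, Rbl1 and Rbl2 (the pocket proteins) and so release E2F factors. The proteins of Cdkn1b, Cdkn2a and Cdkn2b oppose this step, directly or, for the Arf product of Cdkn2a, through p53. Mouse ESC are known for a short G1 phase and high cyclin E activity.

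Total counts were 24666260 to 40781415 per library, and values are counts scaled to library size (CPM) on edgeR's TMM-adjusted totals. With 1 library per group, no difference between 2 libraries could be set against the spread between cultures, and no p-value is given for one. Such a difference is given as a log2 ratio with a 95% interval that covers counting error only. A gene is counted as higher or lower, by the 2-fold rule, when it had 20 or more counts in at least 1 of the 2 libraries, a ratio of 2-fold or more, and an interval that left out no change. Nr1h2, the siRNA's target, stood at 37.7 CPM in siNr1h2 against 53.9 CPM in siNT. Abca1, a target of the liver X receptors, had 211 CPM in T09 EPSC against 18.3 CPM in EPSC, and 339.9 CPM in T09 ESC against 51.0 CPM in ESC. Type I blastoids had 207 CPM of Abca1 and Type III 5.38 CPM, although both are labelled as of T09-treated origin. The day 2 blastoids had 5.07 CPM in siNr1h2 and 3.40 CPM in siNT. As the blastoid media list no T09, these levels do not show whether the starting EPSC had been treated. Calls on day 5 against T09 EPSC were therefore also made against untreated EPSC, and those that differed are named. Summed levels of 10 naive pluripotency markers were 5317 to 8485 CPM in the 4 stem cell libraries, 2759.5 and 2829.6 CPM in siNr1h2 and siNT, and 851 and 1586 CPM in Type I and Type III, with 10 of 10 markers at 1 CPM or more in each library. The 10 primitive endoderm markers summed to 139 to 203 CPM in stem cells, with Foxa2 at 0 counts in both ESC libraries, and to 2205 to 7238 CPM in blastoids. Lama1 made up most of the stem cell sum, with 129 CPM in ESC and 160 CPM in EPSC. Cubn alone had 1070 CPM in siNr1h2 and 1125 CPM in siNT. The 10 trophectoderm markers summed to 128 to 203 CPM in stem cells, with Elf5 at 0 counts in both EPSC libraries, and to 276 to 1582 CPM in blastoids. On day 5 Krt8 (717 CPM in Type I and 754 CPM in Type III) and Krt18 (553 and 648 CPM) made up most of that sum. Tfap2c was lower in each blastoid library (19.5 to 46.4 CPM) than in each stem cell library (59.7 to 104 CPM), and Gata3 stood at 2.51 and 4.59 CPM on day 5, within its stem cell range of 0.614 to 5.71 CPM. The 8 fibroblast markers summed to 8.47 to 27.2 CPM in all libraries.

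Between the highest and lowest of the 8 libraries, Ccnd2 varied 329-fold, Cdkn2a 5.90-fold, Cdkn2b 5.30-fold, Ccne1 4.74-fold, Ccnd1 4.71-fold and Mcm2 4.46-fold. At the other end stood Cdk4, the kinase partner of D-type cyclins, which varied 1.11-fold (547 to 606 CPM), Tyms, the thymidylate synthase, at 1.16-fold, and Cdk2 at 1.24-fold. The proliferation antigen Mki67 varied 1.36-fold. The members thus held both genes at nearly even levels in stem cells and blastoids and genes that differed several-fold between them.

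**Figure D1:**
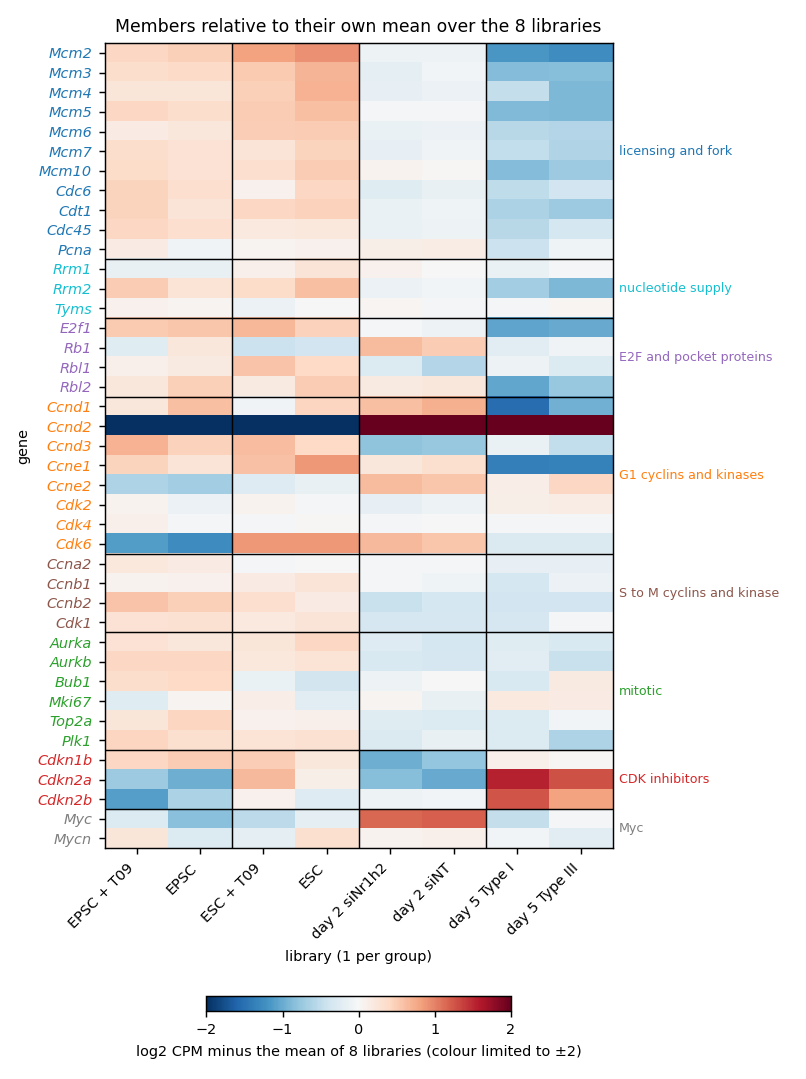
Heat map of the 41 members (rows, grouped and coloured by role) in the 8 libraries (columns, 1 per group), as log2 CPM minus each gene's own mean over the libraries, with colour limited to 2 in either direction. Licensing genes are above their mean in the 4 stem cell libraries, apart from Pcna in EPSC, and lowest in the day 5 blastoids, Ccnd2 runs the other way, and Cdk4 and Tyms hardly vary.

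The question of the next comparisons is how the members in blastoids differed from those in the EPSC they were made from. On day 5 the licensing and fork genes Mcm2, Mcm3, Mcm5 and Mcm10 were lower, as were E2f1, Ccne1 and Ccnd1, and Ccnd2, Cdkn2a and Cdkn2b were higher, in both types and against T09-treated and untreated EPSC alike. Cdt1 and Rrm2 were lower in both types against T09 EPSC. In Type I over T09 EPSC, 13 of 41 members (31.7%) passed the 2-fold rule, 3 higher and 10 lower, where 40.8% of the 14378 genes tested did. Of Type III over T09 EPSC the count was 16 of 41 (39.0%), 4 higher and 12 lower, against 37.7% of 14395 genes. The share of members past the rule was thus below that of genes in general in Type I and close to it in Type III. By direction, 24.4% of the members were lower and 7.32% higher in Type I, beside 18.1% and 22.7% of all genes, and 29.3% were lower and 9.76% higher in Type III, beside 16% and 21.7% of all genes. The median log2 ratio of the members was -0.62 in Type I and -0.47 in Type III, beside -0.03 and 0.00 over all genes. Both comparisons share the T09 EPSC library. Against untreated EPSC, 11 members (26.8%) passed in Type I, where 39.5% of all genes did, and 14 (34.1%) in Type III, where 37% did. With that start Cdt1 and Rrm2 no longer passed in Type I, Cdt1, Ccnd3 and Plk1 no longer passed in Type III, and Rbl2 passed in Type III as well. At 1.5-fold, 27 of 41 members passed in Type I and 25 of 41 in Type III, shares above the 58.6% and 56% of all genes. The order of the shares in Type I thus depended on the threshold. Medium, aggregation and hand picking changed along with time and cannot be told apart from it, nor, over T09 EPSC, can the lack of T09 in the blastoid media. In these bulk libraries fewer cells of a type and less RNA per cell cannot be told apart, and the pluripotency and endoderm markers above moved with the same contrast. Their part in the differences was not tested.

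On day 2 the difference was smaller and of another make-up. In siNT over untreated EPSC, 6 of 41 members (14.6%) passed, 4 higher and 2 lower, where 25.8% of 14496 genes did, 14.5% higher and 11.3% lower. At 1.5-fold the count was 13 of 41, a share below the 40% of all genes. The members higher were Ccnd2, Myc, Cdk6 and Ccne2, and those lower were Cdkn1b and Ccnd3. The median ratio of the members was -0.33, beside -0.04 over all genes. Medium, aggregation and transfection changed along with time and cannot be told apart from it. Day 2 and day 5 libraries also differ in transfection, in hand picking and in the labelled T09 origin of their EPSC. Where the 2 days are compared, these cannot be told apart from time.

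**Figure D2:**
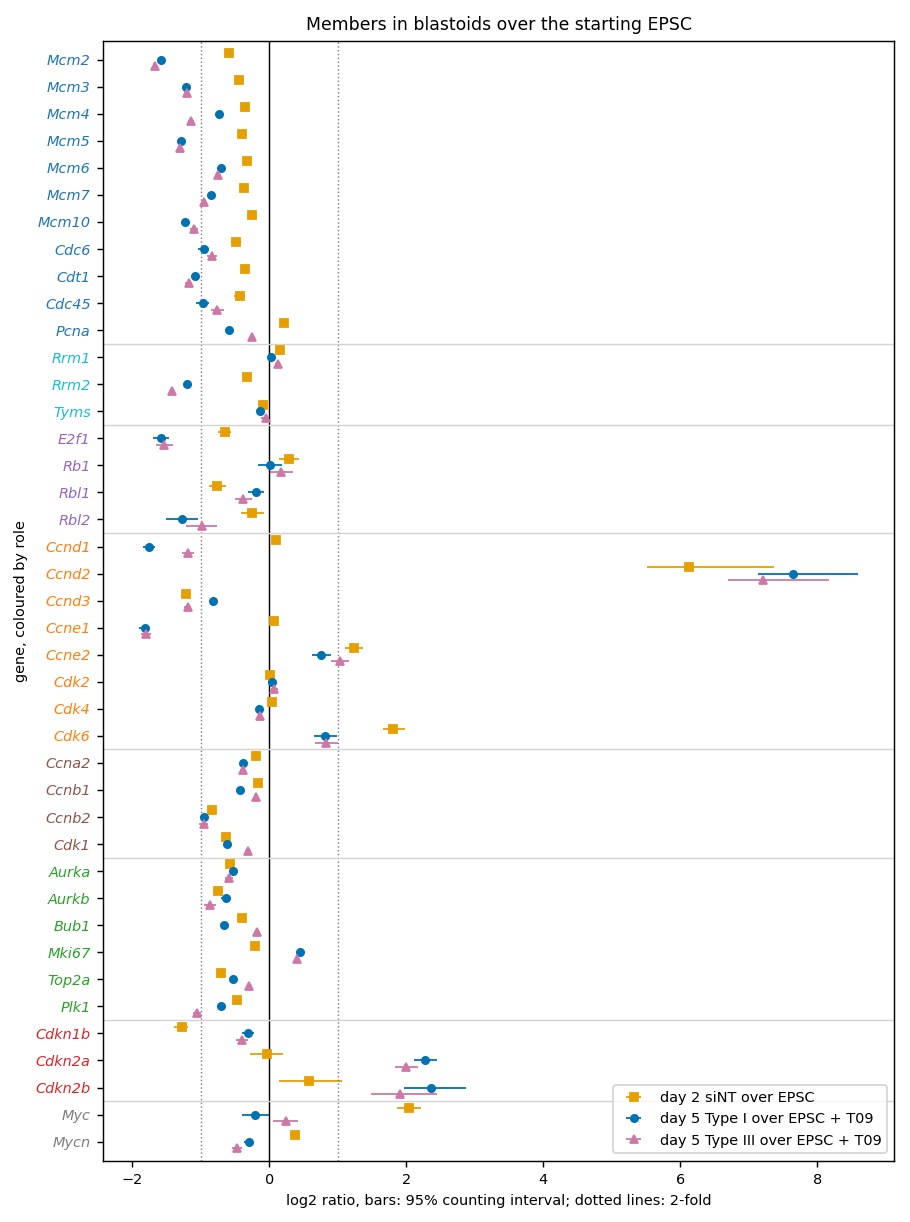
Log2 ratio (horizontal axis) of each member (rows, coloured by role) in day 2 siNT blastoids over untreated EPSC, and in day 5 Type I and Type III blastoids over T09-treated EPSC, with 95% counting intervals as bars and 2-fold marked by dotted lines. All 11 licensing and fork genes lie left of 0 in both day 5 comparisons, and Ccnd2 lies at 6.13, 7.65 and 7.21.

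Every licensing and fork gene was below its level in T09 EPSC in both day 5 types, with a median log2 ratio of -0.97 in Type I and -1.09 in Type III. By the 2-fold rule 5 and 6 of the 11 were lower (45.5% and 54.5%), beside 18.1% and 16% of all genes. Over untreated EPSC 4 and 5 of the 11 were lower (36.4% and 45.5%), beside 18.4% and 16.8% of all genes. Mcm2, a subunit of the helicase, had 713 CPM in T09 EPSC, 744 in EPSC, 932 in T09 ESC, 1005 in ESC, 497 in day 2 siNr1h2, 495 in day 2 siNT, 237 in Type I and 225 in Type III. Its levels were thus lowest in both day 5 libraries, intermediate on day 2 and highest in ESC, with a log2 ratio over T09 EPSC of -1.59 [-1.62, -1.55] in Type I and -1.66 [-1.70, -1.62] in Type III. Mcm5, another subunit, had 739 CPM in T09 EPSC, 713 in EPSC, 793 in T09 ESC, 842 in ESC, 540.2 in day 2 siNr1h2, 539 in day 2 siNT, 303 in Type I and 299 in Type III, with ratios of -1.28 and -1.30 in Type I and Type III. Mcm3 likewise had 238 CPM in Type I and 240.3 CPM in Type III, against 553 CPM in T09 EPSC, for ratios of -1.21 and -1.20. The order of the libraries was the same for these 3 subunits at the level of stage, with day 5 below day 2 and day 2 below the stem cells.

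The 6 subunits did not differ to the same extent. Mcm6 and Mcm7 stayed within 2-fold of T09 EPSC, at -0.71 and -0.85 in Type I and -0.75 and -0.95 in Type III. Mcm4 had 220.0 CPM in Type I and 165 CPM in Type III, against 365 CPM in T09 EPSC, and passed in Type III alone (-0.73 and -1.15). That difference of Mcm4 between the types is described further on. Of the loading factors, Cdt1 had 120.5 and 113 CPM in Type I and Type III, against 254 CPM in T09 EPSC, and was lower by the rule in both (-1.08 and -1.17). Against untreated EPSC, at 224 CPM, it passed in neither (-0.90 and -0.99). Its partner Cdc6 had 60.0 and 65.7 CPM, against 117 CPM in T09 EPSC, and passed in neither (-0.96 and -0.83). Mcm10, which helps to activate the loaded helicase, was lower in both (-1.23 and -1.09), and Cdc45, which travels with it, in neither (-0.97 and -0.75). Pcna, the sliding clamp of the polymerases, was the member of the list nearest to T09 EPSC, at -0.59 in Type I and -0.25 in Type III. It was also the only one of the 11 above EPSC on day 2, with 379 CPM in siNT against 326 CPM in EPSC (0.22 [0.18, 0.25]). The other 10 were below EPSC on day 2, none by 2-fold, and the list's median was -0.37.

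E2F factors activate many licensing genes, and mitotic genes often carry a cell cycle genes homology region (CHR), so the promoters of the members were searched for words of both kinds. RefSeq windows of GRCm38.p6, from 250 bases before to 50 bases after the start, matched 33 of the 41 members, with 36 windows of 300 bases. The E2F words were TTTCCCGC, TTTCGCGC, TTTGCCGC and TTTGGCGC, and the CHR words TTTGAA and TTCGAA, on both strands. Matches of E2F words on opposite strands may overlap each other. Of all 32851 windows, 2.26% held an E2F word and 19.2% a CHR word. An E2F word stood in 6 of the 11 licensing windows, those of Mcm3, Mcm5, Mcm6, Cdc6, Cdt1 and 1 of 2 of Mcm7, and in 0 of 5 mitotic windows. A CHR word stood in 5 of 5 mitotic windows, those of Aurka, Bub1, Mki67, Top2a and Plk1, and in 3 of 11 licensing windows. Mcm2, Mcm10, Ccne1 and Rrm2, all lower in both day 5 types over T09 EPSC, held no E2F word in their windows. The last letters of the Mcm10 window match the start of TTTGGCGC, so a word across its end would be missed. Conversely, Mcm6, Mcm7, Cdc6, Rbl1, Cdk1, Cdk2, Mycn and 1 of 2 windows of Cdkn2a held an E2F word. None of these genes was lower by the rule in either type. The E2f1 window held none either, but much of it reads in frame as E2f1 coding sequence. It therefore says nothing of the E2f1 promoter. These matches describe letters and are not evidence of binding. The sequences below run 5' to 3', with every matched word in capitals. They set 2 licensing promoters with E2F words beside that of Mcm2, the licensing gene with the lowest ratios, and beside 2 mitotic promoters with CHR words:
Mcm5 (chr8:75109259-75109558, plus strand): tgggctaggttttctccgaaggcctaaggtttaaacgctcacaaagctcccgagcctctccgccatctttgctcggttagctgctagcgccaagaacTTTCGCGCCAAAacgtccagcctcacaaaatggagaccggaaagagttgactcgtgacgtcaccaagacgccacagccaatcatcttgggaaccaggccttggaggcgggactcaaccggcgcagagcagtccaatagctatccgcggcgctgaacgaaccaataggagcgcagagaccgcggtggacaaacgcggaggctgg
Mcm6 (chr1:128359656-128359955, minus strand): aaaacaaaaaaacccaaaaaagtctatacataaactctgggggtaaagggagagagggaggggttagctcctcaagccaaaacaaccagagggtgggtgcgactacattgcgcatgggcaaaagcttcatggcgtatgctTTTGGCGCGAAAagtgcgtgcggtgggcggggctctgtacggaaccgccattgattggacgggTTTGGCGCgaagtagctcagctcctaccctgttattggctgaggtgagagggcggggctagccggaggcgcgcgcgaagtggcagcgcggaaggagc
Mcm2 (chr6:88898731-88899030, minus strand): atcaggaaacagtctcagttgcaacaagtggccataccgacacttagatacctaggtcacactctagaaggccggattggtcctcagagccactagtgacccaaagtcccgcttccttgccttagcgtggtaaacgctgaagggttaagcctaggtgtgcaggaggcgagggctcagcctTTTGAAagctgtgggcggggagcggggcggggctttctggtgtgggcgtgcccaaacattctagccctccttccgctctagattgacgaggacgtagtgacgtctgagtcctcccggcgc
Plk1 (chr7:122159185-122159484, plus strand): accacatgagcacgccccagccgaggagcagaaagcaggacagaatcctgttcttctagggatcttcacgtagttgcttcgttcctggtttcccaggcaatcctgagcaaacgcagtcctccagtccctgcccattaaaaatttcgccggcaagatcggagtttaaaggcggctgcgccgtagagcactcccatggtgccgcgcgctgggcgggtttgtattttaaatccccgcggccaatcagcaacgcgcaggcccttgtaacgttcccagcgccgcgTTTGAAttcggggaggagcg
Top2a (chr11:99024140-99024439, minus strand): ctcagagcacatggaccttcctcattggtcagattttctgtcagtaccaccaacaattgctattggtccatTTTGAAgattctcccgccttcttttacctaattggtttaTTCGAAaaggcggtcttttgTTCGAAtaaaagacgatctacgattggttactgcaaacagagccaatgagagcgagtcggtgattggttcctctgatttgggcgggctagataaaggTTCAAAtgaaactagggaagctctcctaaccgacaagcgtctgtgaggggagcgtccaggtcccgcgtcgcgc
In Mcm5 and in Mcm6 E2F words on opposite strands share bases and read as 1 run of capitals, and Top2a holds 4 CHR words.

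Of nucleotide supply, only the regulated small subunit of ribonucleotide reductase, Rrm2, differed by 2-fold. Rrm2 had 474 CPM in T09 EPSC, 402 in EPSC, 430.5 in T09 ESC, 506 in ESC, 307 in day 2 siNr1h2, 321 in day 2 siNT, 206 in Type I and 178 in Type III. Both day 5 libraries were below all others, with ratios over T09 EPSC of -1.20 [-1.24, -1.16] in Type I and -1.41 [-1.46, -1.37] in Type III. Over untreated EPSC they were -0.96 and -1.17, and Type I did not pass. Its large subunit Rrm1 had 282 and 303 CPM in Type I and Type III, against 278 CPM in T09 EPSC. Tyms, which makes thymidylate, had 102 and 108 CPM against 112 CPM. Both of these genes were within 1.2-fold of T09 EPSC in either type, and the sign for Rrm1 in Type I turned when library totals were used for scaling.

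E2f1, the activator E2F of the list, had 61.0 CPM in T09 EPSC, 62.8 in EPSC, 67.4 in T09 ESC, 58.9 in ESC, 41.6 in day 2 siNr1h2, 40.0 in day 2 siNT, 20.5 in Type I and 21.1 in Type III. The 4 stem cell libraries lay close together, day 2 was lower and day 5 lowest, with ratios over T09 EPSC of -1.57 [-1.70, -1.46] in Type I and -1.53 [-1.66, -1.41] in Type III. Of the pocket proteins that hold E2F in check, Rbl2 was lower in Type I (5.68 CPM, -1.27) and just inside the rule in Type III (6.91 CPM, -0.99), against 13.7 CPM in T09 EPSC. Over untreated EPSC, at 16.3 CPM, it passed in both (-1.51 and -1.23). Rbl1 had 31.3 and 27.6 CPM against 35.8 CPM, and Rb1 14.1 and 15.7 CPM against 14.0 CPM, and neither passed the rule. On day 2 Rb1 stood at 25.7 CPM in siNr1h2 and 23.6 CPM in siNT, its highest values in the 8 libraries.

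The order of the D-type cyclins differed between stages. Ccnd2 had 0.420 CPM in T09 EPSC, 0.288 in EPSC, 0.893 in T09 ESC, 0.904 in ESC, 28.2 in day 2 siNr1h2, 23.7 in day 2 siNT, 94.9 in Type I and 70.2 in Type III, which rest on 11 to 32 counts per stem cell library and 740 to 3405 counts per blastoid library. No stem cell library came near any blastoid library. The quotient of the CPM values was 82.4-fold in siNT over EPSC, 226-fold in Type I over T09 EPSC and 167-fold in Type III over T09 EPSC. The log2 ratios, which add a prior count of 2 and are therefore smaller at these low counts, were 6.13 in siNT, 7.65 in Type I and 7.21 in Type III. The counting intervals, which carry no prior, ran from 5.52 to 7.37 in siNT, from 7.14 to 8.60 in Type I and from 6.70 to 8.17 in Type III on the log2 scale. Ccnd1 had 113 CPM in T09 EPSC, 148 in EPSC, 92.2 in T09 ESC, 131 in ESC, 148 in day 2 siNr1h2, 159 in day 2 siNT, 33.7 in Type I and 49.9 in Type III. Its day 2 levels were among the highest and its day 5 levels the lowest, with -1.75 [-1.85, -1.66] in Type I and -1.18 [-1.27, -1.10] in Type III over T09 EPSC, and 0.10 in siNT over EPSC. Ccnd3 had 343 CPM in T09 EPSC, 291 in EPSC, 323 in T09 ESC, 280.1 in ESC, 122 in day 2 siNr1h2, 126 in day 2 siNT, 194 in Type I and 150.2 in Type III. It was lowest on day 2, at -1.21 [-1.26, -1.16] in siNT over EPSC, and day 5 lay between, at -0.82 in Type I and -1.19 in Type III over T09 EPSC. Over untreated EPSC the Type III ratio was -0.95 and did not pass.

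Levels of different genes were compared per kilobase of exon, from the union of exons in GENCODE M21. That union was 4.709 kb for Ccnd1, 9.409 kb for Ccnd2 and 8.775 kb for Ccnd3. It takes in the exons of every annotated transcript, and the lengths of the transcripts present were not measured. Shares per kilobase, here and below, and their order depend on these lengths. On that scale Ccnd2 made up 25.6% of the 3 D-type cyclins in Type I and 21.2% in Type III, against 0.0706% in T09 EPSC, and 6.22% in siNr1h2 and 4.99% in siNT, against 0.0474% in EPSC. By these union lengths Ccnd1 had the largest share on day 2, with 65.0% in siNr1h2 and 66.7% in siNT. The share of Ccnd3 was largest in Type I (56.2%), in Type III (48.7%) and in the 4 stem cell libraries (51.4% to 65.2%). All 3 genes were thus counted on day 5, where 2 had made up nearly all of the D-type cyclin level in stem cells.

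The E-type cyclins differed from the starting EPSC in opposite directions on day 5. Ccne1 had 174 CPM in T09 EPSC, 153 in EPSC, 191 in T09 ESC, 233 in ESC, 149 in day 2 siNr1h2, 160.0 in day 2 siNT, 49.2 in Type I and 50.0 in Type III. The day 5 levels were well below all others, with ratios over T09 EPSC of -1.82 [-1.90, -1.74] in Type I and -1.80 [-1.87, -1.72] in Type III, while siNT stood 0.06 from EPSC. Ccne2 had 18.1 CPM in T09 EPSC, 17.3 in EPSC, 23.4 in T09 ESC, 25.1 in ESC, 43.3 in day 2 siNr1h2, 40.8 in day 2 siNT, 30.7 in Type I and 37.0 in Type III. Each blastoid library was above each stem cell library, at 1.24 [1.11, 1.37] in siNT over EPSC, 1.03 [0.90, 1.17] in Type III and 0.76 [0.63, 0.90] in Type I over T09 EPSC. Per kilobase, Ccne2 made up 32.2% and 36.1% of both E-type cyclins in Type I and Type III, against 7.36% in T09 EPSC, and 16.3% in siNT, against 7.93% in EPSC.

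Among the kinases of these cyclins, Cdk6 alone differed by 2-fold. Cdk6 had 12.0 CPM in T09 EPSC, 10.9 in EPSC, 47.6 in T09 ESC, 47.7 in ESC, 40.8 in day 2 siNr1h2, 38.4 in day 2 siNT, 21.2 in Type I and 21.4 in Type III. The EPSC libraries were lowest, day 5 was next, and day 2 was close to ESC. The ratio was 1.81 [1.66, 1.98] in siNT over EPSC, and 0.82 and 0.83 in Type I and Type III over T09 EPSC, which is inside the rule. Cdk4 made up 98.0% to 99.5% of the summed level of Cdk4 and Cdk6 per kilobase in every library. Cdk2, the partner of E-type cyclins, had 139 and 142 CPM in Type I and Type III, against 135 CPM in T09 EPSC.

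**Figure D3:**
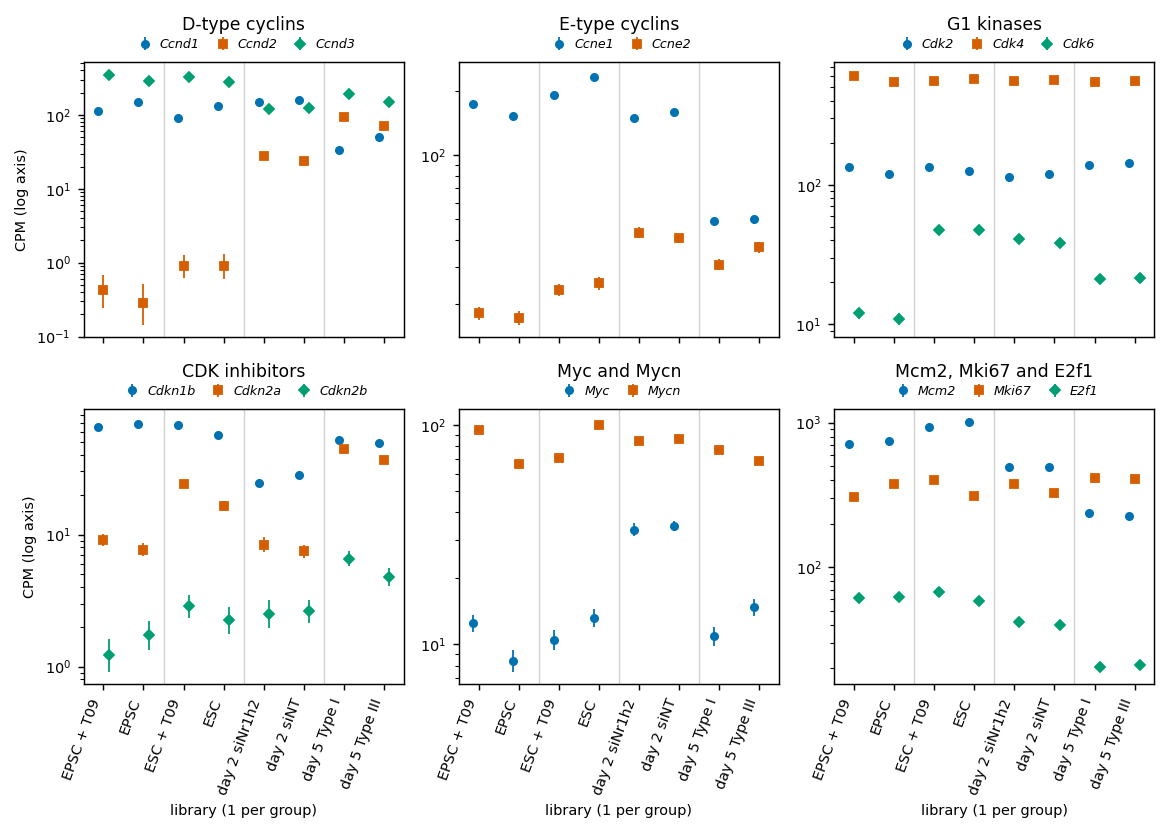
Level in CPM on log axes (vertical) of selected members in each of the 8 libraries (horizontal, 1 per group), with the 95% counting interval as a bar where it is wider than the point. Ccnd2 lies below 1 CPM in stem cells and above 20 CPM in blastoids, Myc peaks on day 2 at 33.4 and 34.6 CPM, and Mki67 stays between 307 and 417 CPM while Mcm2 differs 4.46-fold.

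For the genes of S phase to mitosis the day 5 medians lay nearer to 0 than those of licensing, and the day 2 medians did not (-0.41 for S phase to mitosis and -0.52 for the mitotic genes, beside -0.37 for licensing). No test was made of these differences. Ccna2, the cyclin of S phase, had 233 and 232 CPM in Type I and Type III, against 303 CPM in T09 EPSC. Ccnb1, a mitotic cyclin, had 302 and 354 CPM against 404 CPM. Ccnb2 was just inside the 2-fold rule, at -0.95 in Type I and -0.96 in Type III, with 88.3 and 87.8 CPM against 171 CPM. Cdk1, the kinase of both, had 169 and 209.9 CPM against 259.7 CPM. The median ratio of these 4 genes was -0.52 in Type I and -0.35 in Type III. In either type 0 of 4 passed, where 40.8% and 37.7% of all genes did.

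Of the 6 mitotic genes, 0 passed in Type I and 1 in Type III, where 40.8% and 37.7% of all genes did. Their medians were -0.58 and -0.44. Plk1, the kinase of mitotic entry and exit, had 215 CPM in T09 EPSC, 199 in EPSC, 193 in T09 ESC, 196 in ESC, 130.2 in day 2 siNr1h2, 144 in day 2 siNT, 132 in Type I and 104 in Type III. It was lowest in Type III, at -1.05 [-1.11, -0.99], and stood at -0.71 in Type I. Over untreated EPSC the Type III ratio was -0.94 and did not pass. Aurkb, the kinase of the chromosomal passenger complex, had 59.9 and 51.0 CPM in Type I and Type III, against 92.8 CPM in T09 EPSC. Aurka, the spindle pole kinase, had 102 and 97.9 CPM against 147 CPM. Bub1, a kinase of the spindle checkpoint, had 135 and 189.6 CPM against 215 CPM, and topoisomerase Top2a 678 and 795 CPM against 974 CPM. Mki67 was above T09 EPSC, with 417 and 408 CPM against 307 CPM (0.44 and 0.41). On day 2 all 6 were below EPSC, from -0.21 (Mki67) to -0.75 (Aurkb), with 0 past the rule.

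Both genes of the Cdkn2 locus were higher on day 5, and Cdkn1b was lower on day 2. Cdkn2a had 9.12 CPM in T09 EPSC, 7.70 in EPSC, 24.0 in T09 ESC, 16.5 in ESC, 8.39 in day 2 siNr1h2, 7.49 in day 2 siNT, 44.2 in Type I and 36.6 in Type III. Both day 5 libraries were above all others, with ratios over T09 EPSC of 2.27 [2.11, 2.45] in Type I and 2.00 [1.84, 2.18] in Type III, and siNT stood at -0.04 [-0.28, 0.20] from EPSC. Cdkn2b, whose protein blocks Cdk4 and Cdk6, had 1.24 CPM in T09 EPSC, 1.73 in EPSC, 2.87 in T09 ESC, 2.26 in ESC, 2.52 in day 2 siNr1h2, 2.62 in day 2 siNT, 6.55 in Type I and 4.81 in Type III. It was low in every library and highest on day 5, at 2.36 [1.96, 2.88] in Type I and 1.91 [1.49, 2.45] in Type III. Cdkn1b, the inhibitor of cyclin E with Cdk2, had 64.7 CPM in T09 EPSC, 68.8 in EPSC, 68.0 in T09 ESC, 56.8 in ESC, 24.6 in day 2 siNr1h2, 28.4 in day 2 siNT, 52.1 in Type I and 49.1 in Type III. The day 2 libraries were lowest, at -1.28 [-1.38, -1.18] in siNT over EPSC, and the day 5 libraries lay at -0.31 and -0.40 from T09 EPSC in Type I and Type III.

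Cdkn2a has 2 known promoters, the upstream one for Arf and the downstream one for Ink4a, and counts by symbol did not separate their products. Both RefSeq windows are shown because the higher count on day 5 could come from either:
Cdkn2a (chr4:89294570-89294869, minus strand): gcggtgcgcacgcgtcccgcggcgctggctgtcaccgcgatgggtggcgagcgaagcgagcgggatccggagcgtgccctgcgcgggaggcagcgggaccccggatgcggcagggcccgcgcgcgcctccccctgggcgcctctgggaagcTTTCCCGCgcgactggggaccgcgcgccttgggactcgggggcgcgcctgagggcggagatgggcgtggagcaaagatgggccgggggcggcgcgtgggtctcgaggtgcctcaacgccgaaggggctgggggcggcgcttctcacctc
Cdkn2a (chr4:89282143-89282442, minus strand): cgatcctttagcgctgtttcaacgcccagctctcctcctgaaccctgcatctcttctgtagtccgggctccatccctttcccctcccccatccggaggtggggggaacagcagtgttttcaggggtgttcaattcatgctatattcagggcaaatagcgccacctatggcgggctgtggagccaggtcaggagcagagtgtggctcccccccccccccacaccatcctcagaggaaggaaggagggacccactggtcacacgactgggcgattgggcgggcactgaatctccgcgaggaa
The upstream window holds 1 E2F word, in capitals, and the downstream window none, and neither holds a CHR word.

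Myc, a transcription factor of growth and proliferation genes, had 12.5 CPM in T09 EPSC, 8.40 in EPSC, 10.5 in T09 ESC, 13.2 in ESC, 33.4 in day 2 siNr1h2, 34.6 in day 2 siNT, 10.9 in Type I and 14.8 in Type III. Both day 2 libraries were above all others, and the ratio in siNT over EPSC was 2.03 [1.86, 2.22]. On day 5 it stood at -0.20 in Type I and 0.24 in Type III over T09 EPSC. Over untreated EPSC it stood at 0.37 in Type I and 0.81 in Type III, so the sign in Type I depended on the start. Mycn, its relative with high levels in early embryonic cells, had 94.8 CPM in T09 EPSC, 66.4 in EPSC, 71.1 in T09 ESC, 100.3 in ESC, 84.6 in day 2 siNr1h2, 86.1 in day 2 siNT, 77.0 in Type I and 68.3 in Type III. No blastoid comparison of Mycn reached 2-fold. Per kilobase, Myc made up 32.4% and 32.8% of the sum of both genes in siNr1h2 and siNT, against 13.3% in EPSC, and 13.7% to 20.8% in the remaining libraries.

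The next comparison asked how EPSC differed from ESC. EPSC had lower Cdk6 and Cdkn2a, somewhat lower Mcm2, Mcm4, Mcm6, Rrm1, Ccne1 and Ccne2, and higher Bub1, over both treatments. These genes were tested in edgeR's quasi-likelihood fit of state plus treatment over the 4 stem cell libraries, which has 1 residual degree of freedom and takes T09-treated and untreated libraries as repeats of a state. Benjamini-Hochberg adjustment ran over all 14477 genes tested. Of the members, 9 of 41 passed an adjusted p of 0.05, 1 higher and 8 lower, where 28.8% of all genes passed, 14.3% higher and 14.5% lower. DESeq2 passed 7 of these 9, without Ccne1 and Ccne2. EPSC and ESC differed in serum, inhibitors and passages together, and these cannot be told apart. With no repeat of a state under the same treatment, the p-values do not measure the spread between cultures.

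Cdk6 had 12.0 CPM in T09 EPSC and 10.9 CPM in EPSC, against 47.6 CPM in T09 ESC and 47.7 CPM in ESC. The states did not overlap, and Cdk6 fell by 2.07 on the log2 scale (SE 0.140, edgeR adjusted p = 1.16e-05). Cdkn2a had 9.12 and 7.70 CPM in T09 EPSC and EPSC, against 24.0 and 16.5 CPM in T09 ESC and ESC, and fell by 1.26 (SE 0.171, edgeR adjusted p = 0.000607). Bub1 had 215 and 221 CPM in T09 EPSC and EPSC, against 152 and 129.6 CPM in T09 ESC and ESC, and rose by 0.62 (SE 0.110, edgeR adjusted p = 0.00276). Mcm2 fell by 0.42 (SE 0.106, edgeR adjusted p = 0.0155), Mcm4 by 0.35 (SE 0.108, edgeR adjusted p = 0.0362) and Mcm6 by 0.32 (edgeR adjusted p = 0.0427). The other members that fell were Rrm1 by 0.34, Ccne2 by 0.46 and Ccne1 by 0.38, with edgeR adjusted p of 0.0367, 0.0370 and 0.0465. Ccnd2 (-1.36, adjusted p = 0.104), Cdkn2b (-0.81, adjusted p = 0.124) and Rb1 (0.39, adjusted p = 0.129) did not pass in edgeR's test, the cyclin at 11 to 32 counts per library.

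**Figure D4:**
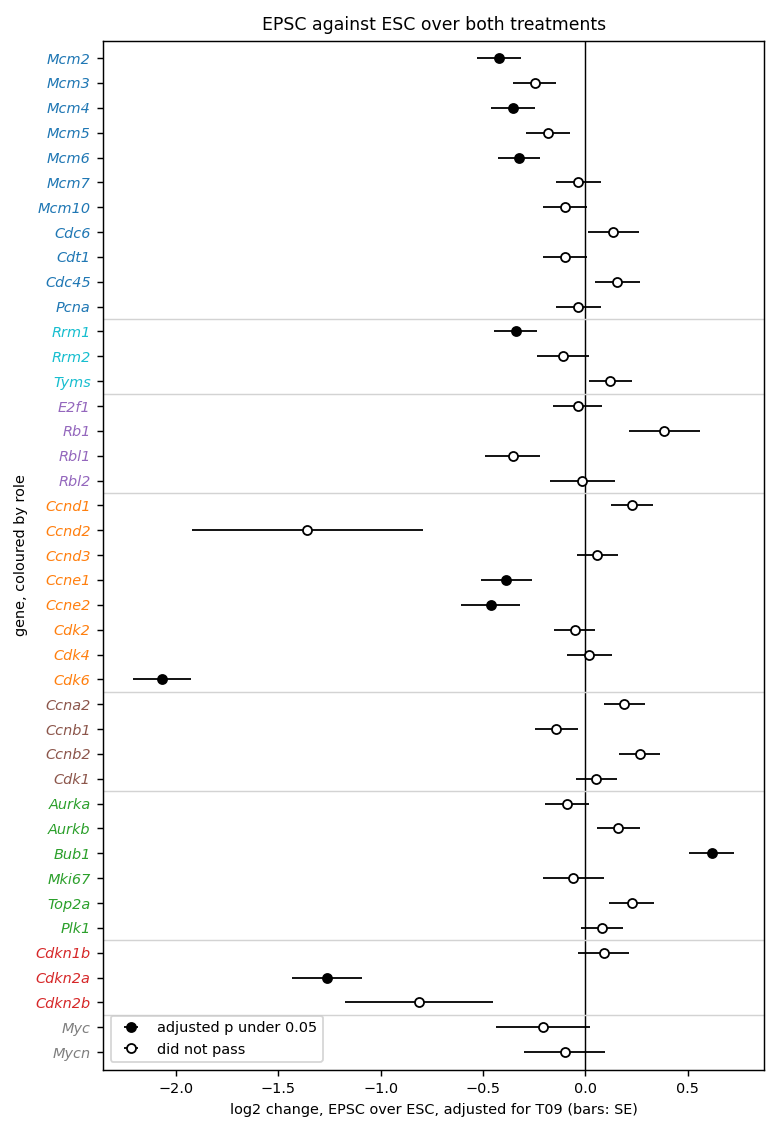
Log2 change of each member (rows, coloured by role) in EPSC over ESC from the edgeR fit over both treatments (horizontal axis, bars are standard errors, 2 libraries per state). Filled points passed an adjusted p of 0.05, with Cdk6 at -2.07 and Cdkn2a at -1.26 far left and Bub1 at 0.62 right.

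By the 2-fold rule, 3 of 41 members were lower and 0 higher in untreated EPSC over untreated ESC, where 17.6% of genes passed and 8.05% were lower. At 1.5-fold the count was 8 of 41, a share below the 29.9% of genes. The 3 past 2-fold were Cdk6 (-2.12 [-2.29, -1.97]), Ccnd2 (-1.48 [-2.80, -0.61]) and Cdkn2a (-1.09 [-1.31, -0.89]). With T09 in both states the count was 4 of 41, all lower, where 18.1% of genes passed and 9.79% were lower, and Cdkn2b joined (-1.18 [-1.74, -0.72]), with 1.24 CPM in T09 EPSC against 2.87 CPM in T09 ESC. Between untreated cultures 10 of 11 licensing genes were below ESC in EPSC, with a median of -0.22, and between T09-treated cultures 5 of 11 were, with a median of 0.03. Myc and Mycn were lower in untreated EPSC, inside 2-fold (-0.64 and -0.59), and above T09 ESC in T09 EPSC (0.25 and 0.41).

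The question for T09 was whether the agonist altered the members in either state. No member reached 2-fold. In T09 EPSC over EPSC, 0 of 40 members passed, Ccnd2 being under the count minimum, where 4.19% of 13632 genes did. In T09 ESC over ESC, 0 of 41 passed, where 3.91% of 13412 genes did. In the edgeR fit over both states 0 of 41 members passed, against 0.104% of 14477 genes, and at an unadjusted p under 0.05 there were 2. Those 2 were Ccnd1 (-0.44, SE 0.103, edgeR adjusted p = 0.336) and Cdkn2a (0.40, SE 0.169, edgeR adjusted p = 0.798). DESeq2 and limma-voom also passed 0 members. Ccnd1 had 113 CPM in T09 EPSC against 148 CPM in EPSC, and 92.2 CPM in T09 ESC against 131 CPM in ESC, so both pairs differed the same way.

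In EPSC the members with the highest ratios were Myc (0.57 [0.37, 0.78]), Mycn (0.51 [0.44, 0.59]) and Cdkn2a (0.24), and those with the lowest were Cdkn2b (-0.47 [-1.04, 0.07]), Rb1 (-0.46 [-0.63, -0.30]) and Ccnd1 (-0.38 [-0.44, -0.32]). In ESC the highest were Cdkn2a (0.54 [0.38, 0.70]), Mki67 (0.36 [0.32, 0.40]) and Cdkn2b (0.34 [-0.10, 0.80]), and the lowest Ccnd1 (-0.50 [-0.57, -0.44]), Mycn (-0.49 [-0.57, -0.42]) and Cdc6 (-0.33). All 11 licensing and fork genes were below untreated ESC in T09 ESC, with a median of -0.11, beside 0.01 over all genes. In T09 EPSC 8 of 11 were above EPSC, with a median of 0.06, and Mcm4 turned below with library totals. Mki67 had 307 CPM in T09 EPSC against 379 CPM in EPSC, and 399 CPM in T09 ESC against 311 CPM in ESC, so the pairs differed in opposite directions.

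**Figure D5:**
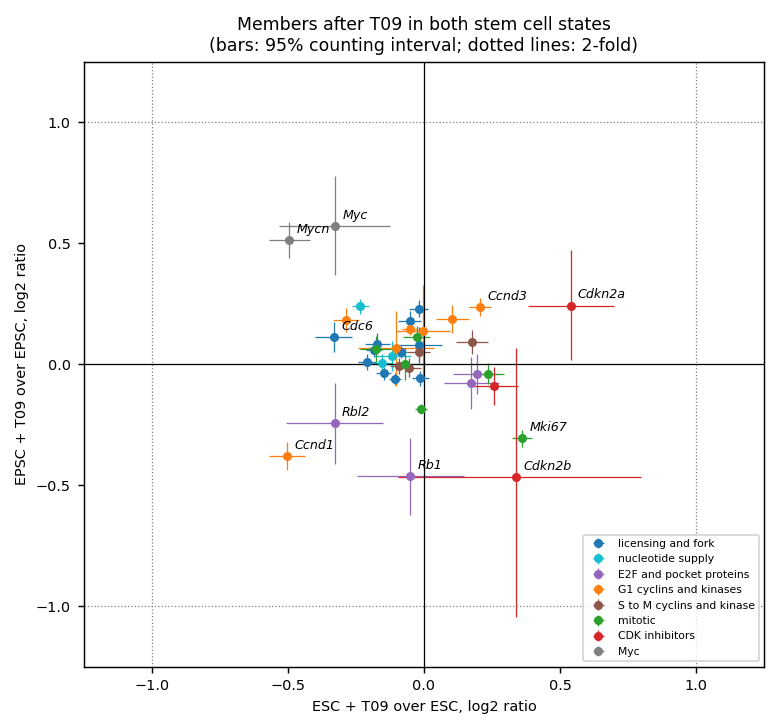
Log2 ratio after T09 in EPSC (vertical axis) against that in ESC (horizontal axis) for 40 members, with 95% counting intervals as bars, colours for roles and dotted lines at 2-fold; Ccnd2 is left out because both EPSC libraries had under 20 counts. All points lie inside the 2-fold lines, with Myc and Mycn upper left at 0.57 and 0.51 in EPSC and Ccnd1 lower left.

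Knockdown of Nr1h2 in day 2 blastoids left every member within 2-fold of siNT. Of siNr1h2 over siNT, 0 of 41 members passed, where 3.66% of 14127 genes did. The ratios ran from -0.21 for Cdkn1b (24.6 CPM in siNr1h2 against 28.4 CPM in siNT) to 0.31 for Rbl1 (27.8 CPM in siNr1h2 against 22.4 CPM in siNT). Next to these came Plk1 (-0.14) and Mcm3 (-0.12) below, and Ccnd2 (0.25) and Mki67 (0.20) above. The counting intervals of 19 members excluded no change. The median of the members was -0.02, beside -0.01 over all genes. The Nr1h2 level itself was only partly reduced, as given above.

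Between the day 5 types, 0 of 41 members passed in Type I over Type III, where 7.68% of 13907 genes did. The lowest ratios were those of Ccnd1 (-0.57 [-0.67, -0.46]), Bub1 (-0.49 [-0.54, -0.43]) and Myc (-0.44 [-0.64, -0.25]). Cdkn2b (0.44 [0.15, 0.75]), Ccnd2 (0.43 [0.36, 0.51]) and Mcm4 (0.42 [0.37, 0.47]) had the highest. Mcm4 had 220.0 CPM in Type I against 165 CPM in Type III, while its partner Mcm2 had 237 CPM against 225 CPM and Mcm6 256 CPM against 249.6 CPM. All 3 inhibitors were above Type III in Type I, and Pcna below (254 CPM against 322 CPM). The signs of Mcm3, Ccne1, Cdk2, Cdk4 and Cdk6, all near 0, turned with DESeq2-type size factors.

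A further 122 genes of the same pathways, listed by role, were measured beside the members. In Type I over T09 EPSC 8 were higher and 19 lower by the 2-fold rule, and in Type III over T09 EPSC 9 were higher and 16 lower. The shares lower, 15.6% and 13.1%, were below the 18.1% and 16% of all genes, and the shares higher, 6.56% and 7.38%, were below the 22.7% and 21.7% of all genes. Of 43 origin and fork genes, 11 (25.6%) were lower in Type I and 7 (16.3%) in Type III, where the Type III share is that of genes in general, and none was higher. Over untreated EPSC 7 (16.3%) were lower in each type, beside 18.4% of all genes in Type I and 16.8% in Type III. Uhrf1, which brings the maintenance DNA methyltransferase to replicated DNA, had 268 CPM in Type I and 223 CPM in Type III, against 868 CPM in T09 EPSC. Of 15 E2F factors and partners, 4 were lower in Type I and 2 in Type III, and 1 was higher in each. Mybl2, a partner of the MuvB complex at mitotic promoters, had 137 CPM in Type I and 168 CPM in Type III, against 805 CPM in T09 EPSC. E2f2, another activator, had 4.88 CPM in Type I and 6.02 CPM in Type III, against 39.3 CPM in T09 EPSC. Of 31 mitosis genes, 3 and 5 were lower and none higher, among them the separase Espl1 (-1.42 in Type I and -1.55 in Type III) and the securin Pttg1 (-2.75 and -2.36). Of the 18 inhibitors and ubiquitin ligase genes, 6 were higher in Type I and 7 in Type III, and 0 and 1 lower. On day 2, 3 of the 122 (2.46%) were higher and 4 (3.28%) lower in siNT over EPSC, beside 14.5% and 11.3% of all genes. In the edgeR fit of EPSC against ESC, 11 of the 122 (9.02%) were higher and 10 (8.20%) lower, beside 14.3% and 14.5% of all genes, and for T09 0 of 122 passed.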

How the data were processed

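The authors deposited raw counts per gene symbol, 1 column per library, 8 columns for 24888 genes, and 0 columns belonged to no sample. The submitters' processing notes name STAR, HTSeq, Cuffnorm and the build mm9, and the annotation and strand setting are not given in the sources used here. Directional libraries were prepared from DNase-treated total RNA, per the labels' protocols. Overlapping, antisense or near-identical genes may share counts. Promoter sequences are from RefSeq on GRCm38.p6 and exon lengths from GENCODE M21, matched by symbol.

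Counts were scaled with edgeR 4.0.16 (TMM, R 4.3.3). Each of 9 comparisons of 2 libraries gave a log2 ratio with a prior count of 2 and a 95% exact conditional (Clopper-Pearson) interval. Reads are not independent molecules, so intervals cover counting error only. As a set floor, a count of 0 was taken to allow up to 3 counts, or 0.0741 to 0.114 CPM. The upper end of the 95% counting interval for 0 counts is higher, at 0.0966 CPM in EPSC and 0.141 CPM in siNr1h2. For the 4 stem cell libraries, state and treatment were fitted together by edgeR's quasi-likelihood method after filterByExpr, with Benjamini-Hochberg adjustment over all genes. Nothing says that libraries came from separate cultures. On simulated data for the T09 fit with 14459 genes, 100% of genes changed 4-fold were recovered, with 11 false calls. The members' T09 changes in the fit were far smaller, the largest being -0.44 on the log2 scale (Ccnd1). Recovery at 4-fold says nothing of changes of that size.

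Members, lists and tests were chosen with earlier results of these data known. The named members are those past the 2-fold rule in a comparison, and otherwise the 3 highest and 3 lowest. All other members are given by level or count. Alternatives were other scalings, count minimums, prior counts and thresholds, no filter, DESeq2 1.42.0 and limma-voom (limma 3.58.1). Untreated EPSC as the start of day 5 blastoids was chosen after the data were seen.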

Additional observations from a re-analysis of the deposited data

Results flagged for a closer look

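Myc and Mycn differed in opposite directions after T09 in the 2 stem cell states, each by at least 1.25-fold with a counting interval that excluded no change. Myc had a log2 ratio of 0.57 in T09 EPSC over EPSC and of -0.33 in T09 ESC over ESC. Mycn had a ratio of 0.51 in T09 EPSC over EPSC and of -0.49 in T09 ESC over ESC. The difference between the states was not tested: with 1 library per group, the only residual degree of freedom of the fit is that difference.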

How the results depend on the processing

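At a threshold of 1.5-fold in place of 2-fold, the counts of members past the rule moved by more than 1.5 times in 4 comparisons. They came to 8 in untreated EPSC over untreated ESC (2 higher, 6 lower, 29.9% of all genes) in place of 3, to 13 in siNT over EPSC (4 higher, 9 lower, 40% of all genes) in place of 6, to 27 in Type I over T09 EPSC (5 higher, 22 lower, 58.6% of all genes) in place of 13, and to 25 in Type III over T09 EPSC (5 higher, 20 lower, 56% of all genes) in place of 16. In Type I the share of members was thus above that of all genes at 1.5-fold and below it at 2-fold. The 60 other alternatives of the counts stayed within 1.5 times. Of the values of single members, 154 fell outside their own counting interval, beside 2468 labelled the same and 2 that no longer passed in a fit. No member past the rule changed sign. A changed threshold or count minimum cannot move a ratio, so those values were the same by design. The alternatives include untreated EPSC as the start, which is another library and no choice of processing. Members near 0 did change sign with another scaling: Mcm4, Rrm1 and Aurkb in T09 EPSC over EPSC, Plk1 in EPSC over ESC, Cdk2 in T09 EPSC over T09 ESC, Ccna2 or Mcm5 in siNr1h2 over siNT, Mcm3, Ccne1, Cdk2, Cdk4 and Cdk6 in Type I over Type III, Tyms and Cdkn2a in siNT over EPSC, and Rrm1, Rb1 and Cdk2 in Type I over T09 EPSC. With untreated EPSC as the start, Rb1 and Mycn changed sign in both day 5 types, Myc in Type I and Cdk4 in Type III. No scaling moved the median of all genes by over 0.1. No paired analysis was possible because each group has 1 library and the labels give no replicate numbers. No library could be left out: 3 libraries leave the fit no residual degree of freedom. Depth limits Ccnd2 in stem cells, at 11 to 32 counts, and Cdkn2b, whose intervals are the next widest among the members in the T09 comparisons.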

Other observations

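Inhibitors of proliferation outside the 41 members also differed between stages and states. Cdkn1c, which encodes p57, had 9.25 CPM in Type I and 15.7 CPM in Type III, against 1.16 CPM in T09 EPSC, and 15.5 CPM in siNT, against 1.39 CPM in EPSC, with log2 ratios of 2.94, 3.69 and 3.43. Btg2, an antiproliferative gene, had 108 CPM in Type I and 98.5 CPM in Type III, against 23.0 CPM in T09 EPSC. Cdkn1a, a target of p53, had 119 CPM in siNT, against 49.3 CPM in EPSC. It was also lower in EPSC, with 49.3 CPM against 185 CPM in ESC. The securin Pttg1 ran the other way, with 84.8 CPM in EPSC against 19.0 CPM in ESC, and 97.1 CPM in T09 EPSC against 22.2 CPM in T09 ESC.

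In the Myc network the Mxd genes differed in opposite directions. Mxd4, a repressor that shares the partner Max, had 9.50 CPM in Type I and 5.57 CPM in Type III, against 0.963 CPM in T09 EPSC. Mxd3, its relative, had 4.24 CPM in Type I and 5.08 CPM in Type III, against 16.9 CPM in T09 EPSC. Ccng2, an unconventional cyclin, was the only one of the 122 further pathway genes past 2-fold with T09, at 20.8 CPM in T09 ESC against 6.81 CPM in ESC (1.60 [1.39, 1.83]). It had 9.12 CPM in T09 EPSC against 14.4 CPM in EPSC.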
